A study of Homo sapiens with 32 samples.

Results

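The comparison is between 3 libraries of SUZ12 knockout (KO) clones and 3 control libraries of A673, an Ewing sarcoma cell line that carries the EWS::FLI1 fusion. The members were taken by their genotype labels, 6 of the 12 libraries of experiment 2 and of the 32 samples of the series. The 3 KO libraries came from 3 clones (SUZ12 KO clones 1, 2 and 3), edited with CRISPR-Cas9 in A673 cells that hold a doxycycline-inducible Cas9 at the AAVS1 locus. The controls were Rep1 and Rep2 of 1 unedited clone with the same inducible Cas9, called the WT clone. The third control was the parental line, which holds no inducible Cas9. All 6 libraries come from STAG2-proficient cells. The spread between control clones therefore rests on 1 clone and its parental line, and effects of growing cells from a single edited cell cannot be told apart from those of the KO. In the same experiment 3 clones with KO of EZH2 were sequenced, made in the same way, and these are given beside the results. Nothing in the labels says that the WT clone libraries came from separate cultures, so the spread between them may be technical in part. The p-values rest on the spread within the groups of all 12 libraries of experiment 2, which include 3 libraries of STAG2 KO clones.

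SUZ12 is a core subunit of Polycomb repressive complex 2 (PRC2), together with EED, RBBP4 or RBBP7, and the catalytic subunit EZH2 or EZH1. The complex methylates histone H3 at lysine 27, a mark of silent chromatin that is found over CpG-rich promoters of developmental regulators such as the HOX genes. SUZ12 holds the complex together, so that its loss takes away the activity of both catalytic subunits, whereas EZH1 can act in place of EZH2. In Ewing sarcoma cells EWS::FLI1 activates a set of targets, many of them neural, and represses mesenchymal genes.

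The libraries held 17898334 to 20366240 counts in the controls and 18510732 to 20646785 in the SUZ12 KO clones, over 28278 gene symbols. Levels are given in CPM, counts scaled to a fixed library total with TMM factors, which do not correct for gene length. Controls are always given in the order WT clone Rep1, WT clone Rep2 and parental line, and KO libraries as clones 1, 2 and 3. More genes reached 1 CPM in the SUZ12 KO clones, 13310 to 13926, than in the controls, 12346 to 12425, and the groups did not overlap (difference of means 1245 genes, exact permutation test, two-sided p = 0.1, the smallest value that 3 against 3 libraries allow). The 2 WT clone libraries were the most alike, with a mean chi-square per gene of 9.41, against 22.2 and 27.2 between the WT clone and the parental line and 29.3 to 58 between SUZ12 KO clones. Between the STAG2 KO clones, which entered the same fit, it was 25.7 to 140. In bulk RNA, fewer cells that express a gene and less RNA per cell cannot be told apart.

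SUZ12 itself (chr17:31937007-32001038, plus strand, GRCh38) was lower in each KO clone. Its level was 56.6, 63.1 and 57.6 CPM in the controls and 15.7, 11.2 and 20.5 CPM in the SUZ12 KO clones (log2 fold change -1.90 ± 0.23 (SE), adjusted p = 0.000299). All 3 clones lay below all 3 controls, and 326, 250 and 382 counts remained in them, so the transcript was reduced but still present. The counts do not say whether the remaining transcripts encode a protein, and the study checked the loss of the protein by immunoblot. SUZ12P1, a pseudogene with sequence shared with SUZ12, was at 5.3, 6.1 and 5.96 CPM in the controls and 6.21, 5.19 and 5.21 in the clones (log2 fold change -0.06, adjusted p = 0.876), and reads that fit both genes may have been counted on either.

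The transcripts of the other PRC2 core subunits were not called. EZH2, the main catalytic subunit, was at 162, 166 and 184 CPM in the controls and 216, 203 and 229 in the SUZ12 KO clones (log2 fold change 0.34, adjusted p = 0.244). The 3 clones were the highest of the 6 libraries, but by a margin that did not pass the test. EED, which reads the methylated histone, had a log2 fold change of -0.34 (adjusted p = 0.276), RBBP4 -0.46 (adjusted p = 0.142), RBBP7 -0.07 (adjusted p = 0.856) and EZH1 0.34 (adjusted p = 0.38).

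Among 9 accessory subunits, which steer the complex to its sites, 8 passed the filter on low counts and 3 were called higher. EPOP, a subunit that binds elongin BC, went from 9.68, 7.79 and 8.33 CPM in the controls to 23.2, 21 and 22.8 in the clones (log2 fold change 1.38 ± 0.25 (SE), adjusted p = 0.00243). JARID2, which recruits the complex, went from 53.5, 54.8 and 43.1 to 90.2, 107 and 80.3 CPM (log2 fold change 0.87 ± 0.20 (SE), adjusted p = 0.0107). For both genes every clone lay above every control of experiment 2. In the 5 control libraries of experiments 1 and 3, scaled by library size and not part of any test, JARID2 was at 74.2 CPM in the lowest and above every clone in the highest library, whereas EPOP was at 7.57 to 11.1 CPM. The call of JARID2 was lost without the parental library (log2 fold change 0.76, adjusted p = 0.0529). LCORL was at 19.1, 27.4 and 20.6 CPM in the controls and 39.5, 44.6 and 33 in the clones (log2 fold change 0.81 ± 0.25 (SE), adjusted p = 0.0408). It overlaps NCAPG on the opposite strand, it was at 33.1 to 44.3 CPM in those 5 other controls, and its adjusted p lay between 0.0519 and 0.153 without clone 1, without clone 2 or without any of the 3 control libraries. AEBP2, PHF1, MTF2, PHF19 and LCOR had log2 fold changes between -0.27 and 0.14 and were not called. With library size as the only scaling RBBP7, MTF2 and PHF19 had positive values, none called. EZHIP, an inhibitor of the complex, did not pass the filter, with 0, 0 and 1 counts in the controls and 1, 7 and 4 in the clones.

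**Figure D1:**
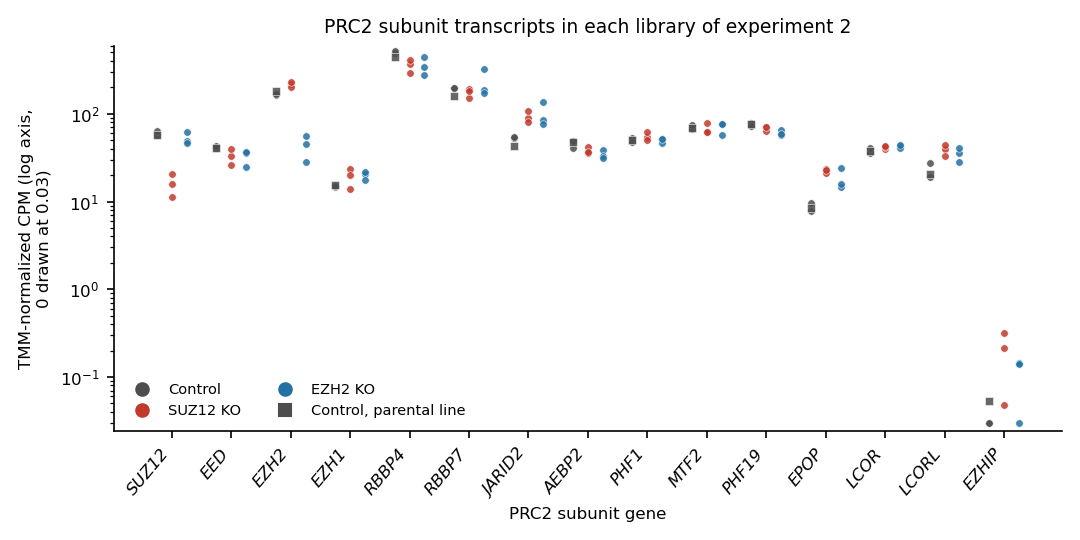
Level of each PRC2 subunit transcript in the control (dark grey, square for the parental line), SUZ12 KO (red) and EZH2 KO (blue) libraries, in TMM-normalized CPM on a log axis, with 1 point per library. SUZ12 was at 11.2 to 20.5 CPM in its KO clones against 56.6 to 63.1 in the controls, EZH2 was low only in the EZH2 KO clones, and EPOP was above the controls in every SUZ12 KO clone.

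Across the genome, 15130 genes passed the filter on low counts, and 3112 of them (20.6%) were called at an adjusted p under 0.05. Of these, 2224 (14.7% of genes tested) were higher and 888 (5.87%) were lower in the SUZ12 KO clones. Changes of more than 2-fold were mostly increases, with 1984 higher and 362 lower genes. The median log2 fold change of all genes tested was 0.01 and moved to 0.19 when libraries were scaled by their size alone, and that scaling called 2556 genes higher and 493 lower. Leaving out clone 2 left 1971 calls, leaving out WT clone Rep1 left 1874 and leaving out WT clone Rep2 left 1907, whereas leaving out the parental library left 2316, clone 1 2253 and clone 3 3238. The groups did not overlap for 7157 of the genes tested (47.3%), and for 3089 of the 3112 called genes.

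The genes that rose and those that fell started from different levels. Of the 2224 genes called higher, 1262 (56.7%) had a control mean under 1 CPM, against 14 (1.58%) of the 888 called lower. Genes that low could pass the filter only through libraries in which they were high, so the counts are also given for the 12399 tested genes with a control mean of at least 1 CPM. Among those, 962 were called higher (7.76%) and 874 lower (7.05%), so increases and decreases were closer in number than over all genes.

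**Figure D2:**
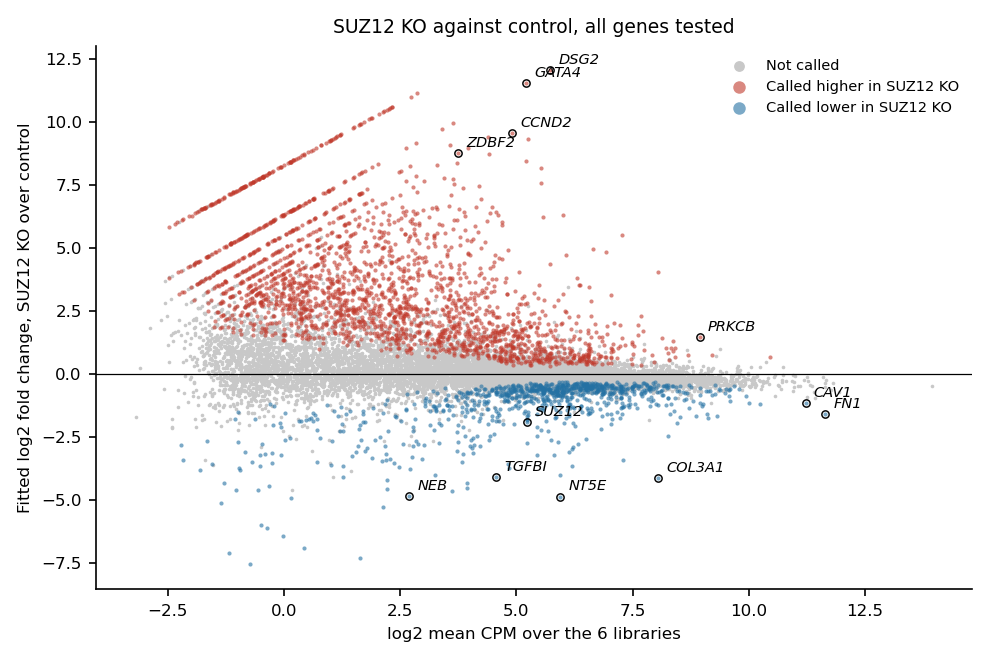
Fitted log2 fold change (SUZ12 KO over control) against log2 mean CPM over the 6 libraries, with 1 point per gene tested, genes called higher in red and called lower in blue. The slanted lines at the upper left are genes with 0 or a few counts in the controls, whose fitted value depends on the prior count, and decreases lie mostly at higher mean levels, such as COL3A1 at -4.13 and NT5E at -4.86.

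Many of the genes that rose were silent in the controls. Of 12858 genes with at most 3 counts in each control library, 264 (2.05%) reached 1 CPM in every SUZ12 KO clone. The same silent genes reached 1 CPM in every library of the EZH2 KO clones in 165 cases and in every library of the STAG2 KO clones of the experiment in 1 case. The mean level of the 264 genes in the SUZ12 KO clones ran from 1.04 to 106 CPM, with a median of 3.65, and 32 were at 10 CPM or more. The 5 control libraries of A673 from experiments 1 and 3 were not used to choose them, and in each of those 142 of the 264 genes (53.8%) also had at most 3 counts. In the other direction, 4 of 11989 genes at 1 CPM or more in every control had at most 3 counts in every SUZ12 KO clone. These were GRAMD2A (3.42, 2.6 and 2 CPM in the controls, 0, 1 and 0 counts in the clones), the integrin gene ITGB8 (1.87, 2.9 and 1.69 CPM, 2, 1 and 1 counts), LMF1-AS1 (7.01, 7.55 and 3.85 CPM, 0, 1 and 1 counts) and STX11, a syntaxin (1.34, 1.33 and 1.95 CPM, 0, 1 and 0 counts).

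PRC2 is known for its sites at CpG-rich promoters, and the sequence before the start of genes that rose and fell was read from GRCh38 for this reason. The 4 stretches of 250 bases that end at the transcription start shown here belong to 2 of the genes with the highest fold changes, to HOXA10 and to SULT1E1, one of the genes with the lowest fold changes. They carry every CpG dinucleotide (C followed by G, the same on either strand) in capitals. They were chosen among the genes named whose stretch held no annotated UTR.
DSG2 (chr18:31497927-31498176, plus strand): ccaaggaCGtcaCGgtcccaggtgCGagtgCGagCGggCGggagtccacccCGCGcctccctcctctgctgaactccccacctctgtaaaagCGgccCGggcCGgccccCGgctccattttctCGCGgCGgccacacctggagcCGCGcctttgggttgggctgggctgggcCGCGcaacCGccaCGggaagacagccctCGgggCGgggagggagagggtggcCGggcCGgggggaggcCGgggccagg
GRIK3 (chr1:37034516-37034765, minus strand): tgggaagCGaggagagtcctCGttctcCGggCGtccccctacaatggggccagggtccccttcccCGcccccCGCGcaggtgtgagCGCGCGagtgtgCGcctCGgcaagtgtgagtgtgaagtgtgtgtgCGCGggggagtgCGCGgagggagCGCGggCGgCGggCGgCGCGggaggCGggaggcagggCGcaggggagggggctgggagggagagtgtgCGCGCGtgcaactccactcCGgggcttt
HOXA10 (chr7:27174321-27174570, minus strand): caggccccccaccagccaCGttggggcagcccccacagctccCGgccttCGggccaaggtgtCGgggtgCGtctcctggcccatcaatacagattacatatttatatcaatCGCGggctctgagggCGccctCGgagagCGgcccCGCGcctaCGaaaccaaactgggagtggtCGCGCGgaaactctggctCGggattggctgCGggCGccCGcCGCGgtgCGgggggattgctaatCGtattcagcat
SULT1E1 (chr4:69860146-69860395, minus strand): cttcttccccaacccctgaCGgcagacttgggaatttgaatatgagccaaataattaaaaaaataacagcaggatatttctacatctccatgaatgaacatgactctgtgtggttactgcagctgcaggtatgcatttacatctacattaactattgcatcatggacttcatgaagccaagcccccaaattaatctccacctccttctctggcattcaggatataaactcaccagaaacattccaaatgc
These stretches held 26 CpG for DSG2, 29 for GRIK3 and 24 for HOXA10, against 1 for SULT1E1. Other genes of the same sets did not follow this contrast. Among the genes with the highest fold changes SHH held 7 and JPH4 8, and among those with the lowest TGFBI held 20 and NT5E 28.

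Over all genes the picture was less sharp than in these 4. In windows of 300 bases, from 250 before to 50 after the start, the genes tested had a median of 27 CpG, and 26.8% of them held 35 or more, the upper quartile. Genes called higher also had a median of 27, with 30.8% at 35 or more, and genes called lower had a median of 28, with 28.4%. The 264 genes that were silent in the controls and on in every SUZ12 KO clone had a median of 27 CpG, with 33.6% at 35 or more, whereas genes that were silent in the controls and did not reach 1 CPM in every clone, most of them not tested, had a median of 5, with 4.96%. Tested genes that were not called and had a control mean under 1 CPM had a median of 16, with 15.4%. At a control mean of at least 1 CPM, 36.3% of genes called higher and 27.2% of those not called held 35 or more. A window was found for 96.2% of genes tested, 97.0% of the 264 and 85.9% of the silent genes that did not reach 1 CPM in every clone. This describes the windows and not PRC2 binding, which these data do not hold.

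The highest and lowest fold changes were read among called genes at a mean of 5 CPM or more whose groups do not overlap. The separation of clones and controls in these genes was thus required by the rule. The 15 highest included 3 genes with no count in any control, and 10 with 1 to 3 counts in the controls in total. DSG2 (chr18:31498177-31549008), the desmosomal cadherin desmoglein 2, had 0, 0 and 1 counts in the controls and was at 99.6, 105 and 113 CPM in the SUZ12 KO clones (ratio of summed counts 5710, 95% counting interval 1020 to 226000; adjusted p = 1.11e-08). GATA4, a cardiac and endodermal transcription factor, had 0, 1 and 0 counts in the controls and 70.0, 78.2 and 72.3 CPM in the clones (ratio 3990, 95% counting interval 717 to 158000; adjusted p = 1.37e-06). Both genes were off in every control and high in every clone, with little spread among clones, and in the EZH2 KO clones they were at 66.8, 100.3 and 73.4 and 55.4, 31.4 and 56.6 CPM. These intervals cover counting error only.

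RORB, a retinoid-related orphan receptor, had 1, 3 and 2 counts in the controls and 65.4, 80.3 and 82.7 CPM in the clones (log2 fold change 9.34 ± 0.65 (SE), adjusted p = 1.06e-05). SHH, the secreted ligand of the hedgehog pathway, had 0, 1 and 2 counts and then 29.4, 39.8 and 23.9 CPM (ratio 569, 95% counting interval 194 to 2760; adjusted p = 0.000222). In both genes the lowest clone lay far above the highest control, a separation that the rule for these genes required. RBFOX1, a neuronal splicing factor, was at 25.4, 66.1 and 33.8 CPM in the clones (ratio 771, 95% counting interval 264 to 3740; adjusted p = 3.82e-05). GRIK3, a kainate receptor subunit, was at 21.8, 17.6 and 31.3 CPM (ratio 628, 95% counting interval 173 to 5190; adjusted p = 2.3e-05). ADARB2, a brain member of the RNA-editing ADAR family, had no count in the controls and 16.2, 9.4 and 4.62 CPM in the clones, at least 185-fold higher against a floor of 3 counts over the control group (adjusted p = 0.000283), with clone 1 the highest and clone 3 the lowest.

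CCND2, which encodes cyclin D2, had 0, 1 and 3 counts in the controls and 64, 63 and 53.3 CPM in the clones (ratio of summed counts 819, log2 fold change 9.55 ± 0.53 (SE), adjusted p = 3.08e-06). SFRP1, a secreted WNT antagonist, had 1 count in the controls and 14.2, 18.6 and 3.87 CPM in the clones (ratio 689, 95% counting interval 123 to 27200; adjusted p = 0.000207). ZDBF2, an imprinted gene, was at 30.8, 23.1 and 26.2 CPM against 3, 0 and 0 counts (ratio 481, 95% counting interval 164 to 2340; adjusted p = 1.06e-05). Clones 1, 2 and 3 were close to each other for CCND2 and ZDBF2, whereas clone 3 was low for SFRP1. Among the 15 were also JPH4 (no control count, 13.9, 19.3 and 10.2 CPM, at least 266-fold), FIGN (25.2, 25.6 and 23.9 CPM), CNNM1 (29.3, 15.2 and 18.8 CPM) and GLDC, the glycine decarboxylase of the glycine cleavage system (13.2, 20.9 and 9.03 CPM). JPH4 overlaps exons of AP1G2. In the 5 control libraries of experiments 1 and 3 the highest count of any of the 15 genes was 23, and 9 of the 15 had at most 3 counts in each of those libraries.

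The 10 lowest fold changes were led by NT5E (chr6:85449584-85495791), which encodes the ectonucleotidase CD73, a mesenchymal surface marker. NT5E was at 141, 153 and 63 CPM in the controls and 3.85, 3.76 and 4.68 in the SUZ12 KO clones (log2 fold change -4.86 ± 1.06 (SE), adjusted p = 0.0076). This was 28.9-fold lower by the ratio of summed counts. COL3A1, a fibrillar collagen, went from 656, 613 and 239.7 to 23.6, 44.8 and 17.5 CPM (log2 fold change -4.13 ± 0.69 (SE), adjusted p = 0.00163). SULT1E1, the estrogen sulfotransferase, went from 35.1, 43.3 and 9.75 to 0.866, 1.39 and 1.56 CPM (log2 fold change -4.53 ± 0.94 (SE), adjusted p = 0.00563). In all 3 genes the parental line was the lowest of the controls and, as the rule required, above every clone. RGS5, a regulator of G protein signaling and pericyte marker, went from 128, 148 and 68.8 to 7.32, 6.62 and 7.31 CPM (log2 fold change -4.02 ± 0.87 (SE), adjusted p = 0.00727). MRGPRF, an orphan G protein-coupled receptor, went from 24.7, 22.2 and 23.8 to 0.337, 1.25 and 1.24 CPM (log2 fold change -4.64 ± 0.92 (SE), adjusted p = 0.00462). ZFP30, a zinc finger gene, was at 12.6, 12.4 and 11.9 CPM in the controls and 0.578, 1.79 and 0.269 in the clones (log2 fold change -3.77 ± 0.59 (SE), adjusted p = 0.0012). GPR174, a lysophosphatidylserine receptor, was at 16.6, 20.4 and 16.6 and 0.481, 1.57 and 1.29 CPM (log2 fold change -3.99 ± 0.44 (SE), adjusted p = 0.000163). The controls were tight for ZFP30, MRGPRF and GPR174.

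The calls of the other 3 of the 10 were lost when some libraries were left out. TGFBI was at 20.3, 19.2 and 94.3 CPM in the controls and 7.37, 0.224 and 0.215 in the clones (log2 fold change -4.09, adjusted p = 0.0214), with adjusted p = 0.0981 without the parental library and 0.0573 without clone 2. NEB, which overlaps RIF1 on the opposite strand, was at 4.39, 3.92 and 29.1 and 0.433, 0.269 and 0.591 CPM (log2 fold change -4.85, adjusted p = 0.0142), and its adjusted p was 0.0533 without clone 1, 0.0648 without clone 2 and 0.0567 without the parental library. MARCHF4 was at 23, 21.7 and 43.2 and 0.963, 0.582 and 2.85 CPM (log2 fold change -4.34, adjusted p = 0.0375), with adjusted p between 0.0686 and 0.136 when clone 1, clone 2 or any control library was left out.

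Control libraries of the other experiments, scaled by library size within their own tables and not part of any test, gave a different baseline for some genes. Of the genes called higher, 798 of 2224 (35.9%) were as high in at least 1 of these 5 libraries as in the lowest SUZ12 KO clone, and of those called lower, 259 of 888 (29.2%) were as low in at least 1 as in the highest clone. Among the genes named here this was so for ATG9B, GIMAP2, HLA-E, HOTAIR, HOXB13, HOXC10, IFIH1, JARID2, KCNH2, LCORL, MBD3L3, NKX2-2, PHC1, SLC34A2, STC2, TMEM176A and TMEM176B, all called higher, and for LIPI, MARCHF4, NEB, NEFL, PON2 and RGS5, all called lower. RGS5 was at 3.91 to 16.9 CPM in the 5 control libraries of experiments 1 and 3, a range that includes the level in the SUZ12 KO clones, and MARCHF4 (0.0508 to 5.33 CPM) and NEB (0.183 to 1.52 CPM) reached the level of the clones as well. MRGPRF (2.1 to 8.88 CPM) and NT5E (21.1 to 55.4 CPM) were lower there than in the controls of experiment 2 but above every clone. COL3A1 (242 to 368 CPM), SULT1E1 (19.3 to 60.6 CPM), ZFP30 (17.7 to 21.8 CPM), GPR174 (53.7 to 165 CPM) and TGFBI (37.3 to 280.0 CPM) stayed above every SUZ12 KO clone. Whether these genes vary with the culture or the run of A673 cells was not tested.

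**Figure D3:**
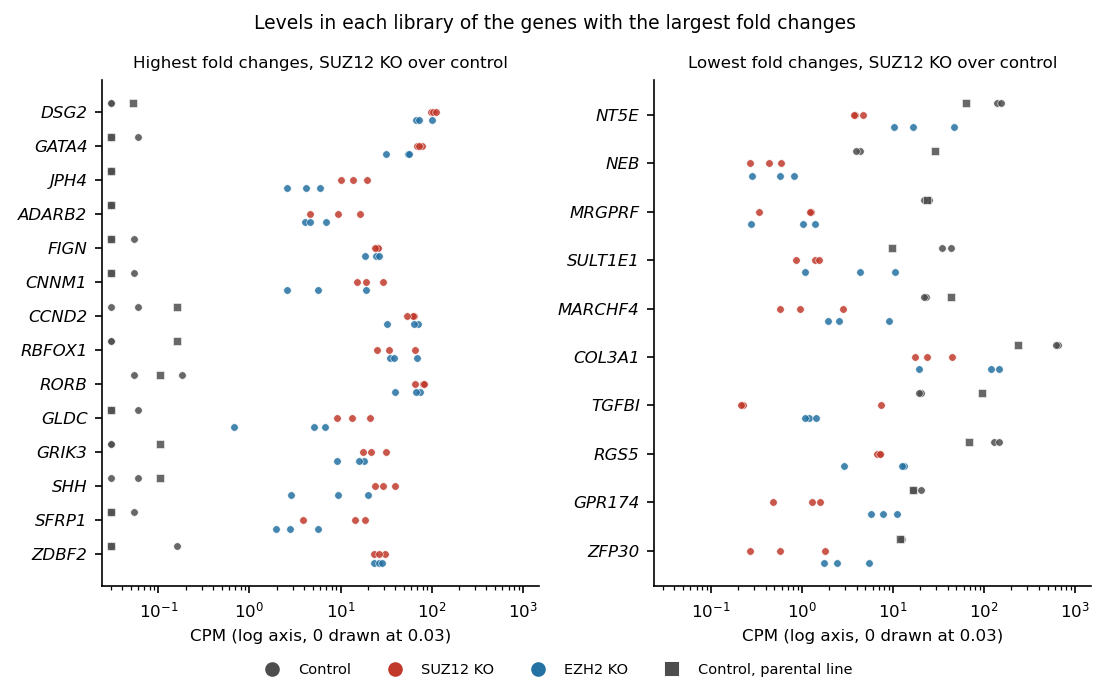
Level in each control (dark grey, square for the parental line), SUZ12 KO (red) and EZH2 KO (blue) library of genes among the 15 with the highest fold changes and of the 10 with the lowest, in CPM on a log axis, with 1 point per library and 0 drawn at 0.03. The genes were chosen so that SUZ12 KO and control libraries do not overlap, so that separation is not a result. On the left the EZH2 KO libraries also lie above all controls, and on the right the EZH2 KO libraries of GPR174, at 5.82 to 11.03 CPM, lie in between.

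The SUZ12 KO clones were not alike in every gene. Over all genes tested the range among the 3 clones had a median of 0.474 log2 units, against 0.321 among the 3 controls, 2 of which are libraries of the same clone. Among genes called higher, the median log2 difference from the control mean was 2.48 in clone 1, 2.77 in clone 2 and 2.15 in clone 3, and 5, 1 and 14 of the 2224 genes lay within the range of the controls in clones 1, 2 and 3. The 5 called genes with the widest range among clones were MBD3L3 (0.144, 33.7 and 4.35 CPM), TGFBI, FBXL7 (16.5, 22.8 and 1.24 CPM), SLC34A2 (2.36, 38.4 and 3.49 CPM) and BMP2 (2.36, 9.49 and 21.6 CPM). Clone 2 was the highest in MBD3L3, FBXL7 and SLC34A2, and clone 3 in BMP2, a bone morphogenetic protein. In MBD3L3 clone 1 was no higher than the controls (0.268, 0.483 and 0.105 CPM), and its adjusted p was 0.182 without clone 2 and between 0.0807 and 0.1 without any 1 control library.

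Homeobox genes, the best known PRC2 targets, differed between the 4 HOX clusters. All 11 HOXA genes had no count in any control library. Of these, 9 reached 1 CPM in every SUZ12 KO clone and were called higher. In the EZH2 KO clones 7 reached 1 CPM in every clone, and 9 were called higher against the same controls. HOXA7 was at 11.3, 7.61 and 11.1 CPM in the clones, at least 179-fold higher (adjusted p = 3.06e-05). HOXA10 was at 4.04, 5.46 and 7.63 CPM, at least 102-fold higher (adjusted p = 0.000163). HOXA2, HOXA3, HOXA4, HOXA5, HOXA11 and HOXA13, which were also called, were at 1.01 to 4.68 CPM. HOXA6 with 2, 6 and 5 counts and HOXA9 with 0, 0 and 2 counts in the clones did not pass the filter. The summed level of the cluster was 32.4 to 42.7 CPM in the clones, and with each gene at its lower bound the median of the 9 genes was 5.48 on the log2 scale.

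The other HOX clusters were expressed in the controls and changed in part. In HOXC all 9 genes were tested and 4 were called higher (HOXC10 to HOXC13, at the 5′ side of the cluster), while 0 were called lower by edgeR, 1 at an unadjusted p under 0.05 and 1 by DESeq2. The share higher was 44.4%, against 14.7% of all genes tested and 7.76% of those with a control mean of at least 1 CPM, which all 9 had. HOXC12 went from 2.78, 3.68 and 4.69 to 30.3, 22.6 and 23.4 CPM (log2 fold change 2.77 ± 0.41 (SE), adjusted p = 0.000849). HOXC11 went from 2.19, 1.81 and 1.05 to 6.55, 6.31 and 6.13 (log2 fold change 1.90 ± 0.38 (SE), adjusted p = 0.00484) and HOXC13 from 9.2, 8.21 and 10.7 to 20.3, 21.9 and 19 (log2 fold change 1.12 ± 0.19 (SE), adjusted p = 0.00203). In HOXD, of 8 genes tested out of 9, HOXD13 was higher, at 69.5, 66 and 64.6 CPM in the controls and 97.2, 119 and 97.5 in the clones (log2 fold change 0.65 ± 0.14 (SE), adjusted p = 0.00742). HOXD8, HOXD9, HOXD10 and HOXD11 were lower. HOXD9 fell from 81.6, 72.3 and 74.7 to 44.8, 39.5 and 46 CPM (log2 fold change -0.81 ± 0.14 (SE), adjusted p = 0.00204) and HOXD10 from 46.2, 47.4 and 47.8 to 27.6, 23.5 and 23.8 (log2 fold change -0.92 ± 0.16 (SE), adjusted p = 0.00201). In HOXB, of 9 genes tested out of 10, HOXB13 was called higher and HOXB2 lower. Calls near the threshold were lost without any of several libraries, while the fold changes stayed of similar size (for HOXC10 1.07 with all libraries and 1.01 to 1.06 in the fits that lost the call, and for HOXD11 -0.48 and -0.46 to -0.49). Without clone 2, HOXB13 had an adjusted p of 0.0564, HOXB2 of 0.0874, HOXC10 of 0.0503, HOXD8 of 0.113 and HOXD11 of 0.0504, and without WT clone Rep1 0.0557, 0.0915, 0.0593, 0.0985 and 0.0654. The call was also lost without WT clone Rep2 for HOXB13, HOXC10 and HOXD8, without clone 1 for HOXB2, HOXD8 and HOXD11, and without the parental library for HOXB2 and HOXD8. HOXB7 was at 22.4, 23.4 and 26.2 CPM in the controls and 20.7, 21.9 and 18.3 in the clones (log2 fold change -0.24, adjusted p = 0.453).

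**Figure D4:**
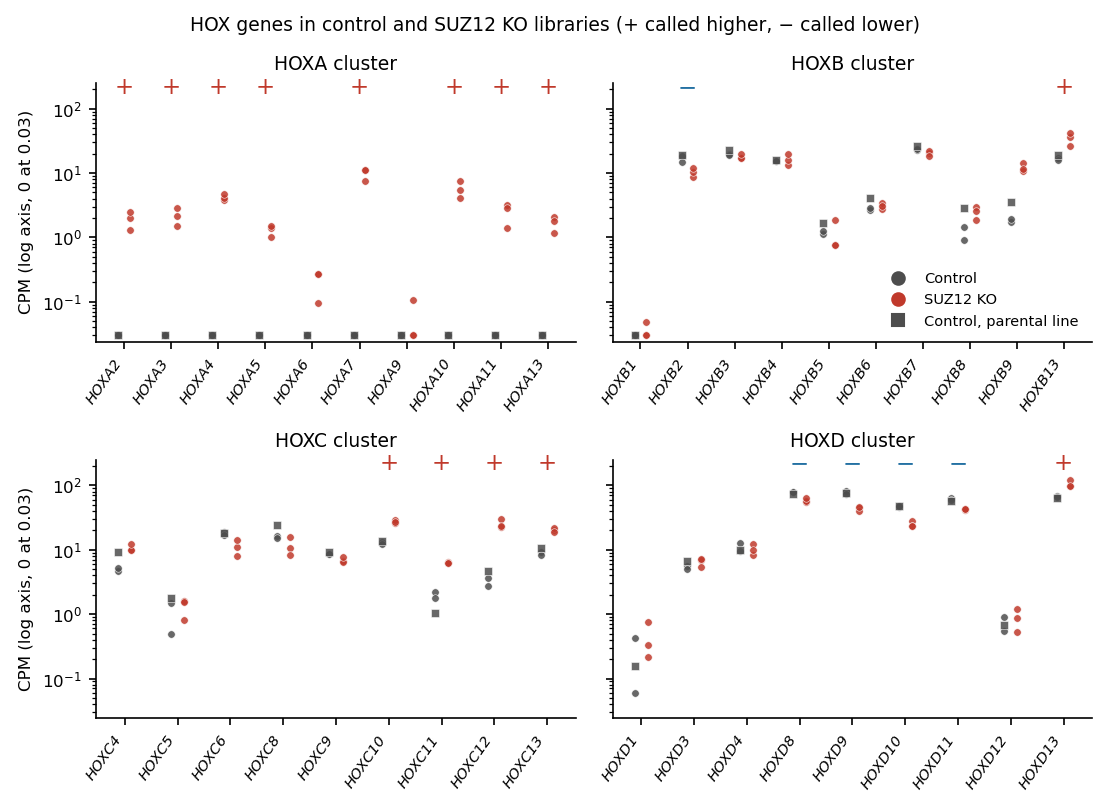
Level of HOX genes in the control (dark grey, square for the parental line) and SUZ12 KO (red) libraries, by cluster, in CPM on a log axis with 0 drawn at 0.03, and a plus or minus sign above genes called higher or lower. All control points of the HOXA cluster sit at 0 and the genes called in it lie at 1.01 to 11.3 CPM in the clones, while the other clusters were expressed in the controls.

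Genes called higher also lay next to each other. Along the genome 42 runs of at least 4 neighbouring tested genes were all called higher, with 198 genes in them, and 3 such runs, with 14 genes, were all called lower. The longest held 12 genes at chr7:26291862-27200091 and contained SNX10, SKAP2, HOTAIRM1 and the 9 HOXA genes. The next held 8 genes at chr7:150567369-151024499 (GIMAP4, GIMAP6, GIMAP2, TMEM176B, TMEM176A, KCNH2, NOS3 and ATG9B), and a run of 6 at chr12:53935328-53990279 held HOTAIR and HOXC10 to HOXC13 with an antisense gene. The longest run of lower genes, 6 at chr7:94394895-95435329, held COL1A2, CASD1, SGCE, PEG10, PPP1R9A and PON2. Some of these genes were not called when 1 library was left out. Without WT clone Rep2 the adjusted p was 0.0947 for ATG9B, 0.133 for KCNH2, 0.0507 for TMEM176A, 0.0634 for HOTAIR, 0.066 for HOXC10, 0.073 for COL1A2, 0.0812 for CASD1, 0.0604 for PPP1R9A and 0.0767 for PON2. Without clone 2, ATG9B, KCNH2, HOTAIR, HOXC10, CASD1, PPP1R9A and PON2 lay between 0.0503 and 0.134. Clone 3, when left out, ended the call of COL1A2 (adjusted p = 0.0624). Without clone 1, ATG9B, HOTAIR, KCNH2, PON2 and PPP1R9A lay between 0.0527 and 0.13, without WT clone Rep1, ATG9B, COL1A2, HOXC10, KCNH2, PON2 and TMEM176A between 0.0593 and 0.108, and without the parental line, ATG9B, HOTAIR, KCNH2, PON2 and PPP1R9A between 0.061 and 0.136. Neighbours that overlap share reads in non-directional libraries, and these counts were not compared with other gene orders.

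Homeobox genes outside the clusters rose in many cases. Of 84 listed, 67 were tested, 35 were called higher (52.2% against 14.7% of all genes tested) and 5 lower (7.46% against 5.87%). Of the 38 with a control mean of at least 1 CPM 9 were higher and 5 lower. Over all tested genes at that control level 7.76% were higher and 7.05% lower. Of 37 that were silent in the controls 12 reached 1 CPM in every SUZ12 KO clone. PITX1, a hindlimb factor, went from 0.802, 0.423 and 1.16 to 23.7, 18.4 and 24.1 CPM (log2 fold change 4.77 ± 0.39 (SE), adjusted p = 2.84e-05). PAX7, a factor of neural crest and muscle progenitors, went from 47.7, 44.1 and 44.5 to 144, 157 and 118 CPM (log2 fold change 1.62 ± 0.19 (SE), adjusted p = 0.000221). LMX1B, silent in the controls, was at 5.25, 6.58 and 2.26 CPM in the clones (at least 87.3-fold higher, adjusted p = 0.000325). In the other direction DLX1 fell from 36.7, 32.7 and 39.8 to 15.1, 6.09 and 12.5 CPM (log2 fold change -1.70 ± 0.34 (SE), adjusted p = 0.00498). ALX4, a highly expressed member, was at 379.8, 353 and 349 CPM in the controls and 397, 349 and 428 in the clones (log2 fold change 0.12, adjusted p = 0.512). PITX1 and PAX7 are named here after their values were seen.

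Other families of developmental regulators held silent members that came on. Of 20 GATA and T-box factors, 12 were tested, 8 were called higher (66.7% against 14.7% of all genes tested), and among the 4 with a control mean of at least 1 CPM 1 was higher. TBX3 went from 0.0535, 0.121 and 0.369 to 12.7, 29.1 and 12.3 CPM (log2 fold change 6.57 ± 1.09 (SE), adjusted p = 0.00154). TBX5, a cardiac and forelimb factor, had 0, 0 and 2 counts in the controls and 10.4, 5.19 and 5.11 CPM in the clones (ratio 188, 95% counting interval 51.6 to 1550; adjusted p = 0.00343), and its mean in the EZH2 KO clones was 0.907 CPM. Of 22 forkhead factors, 12 were tested, 7 were called higher (58.3%) and FOXA1 was called lower. Among the 5 forkhead factors with a control mean of at least 1 CPM 0 were higher and 1 lower. FOXP2 went from 0.0535, 0.181 and 0.211 to 8.81, 15.6 and 7.85 CPM (log2 fold change 6.13 ± 0.59 (SE), adjusted p = 7.67e-05). FOXA1 was at 10.7, 11.4 and 1.53 CPM in the controls and 1.4, 0.403 and 1.5 in the clones (log2 fold change -2.84, adjusted p = 0.0127), with the parental line close to the clones, and its adjusted p was 0.0506 without clone 2.

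Of 44 lineage bHLH factors, 21 were tested, 9 were called higher (42.9% against 14.7% of all genes tested) and 2 lower (9.52% against 5.87%). Of the 16 with a control mean of at least 1 CPM 4 were higher and 2 lower. TAL1, a haematopoietic factor, had 1, 0 and 1 counts in the controls and 11.6, 11.6 and 11.3 CPM in the clones (ratio 311, 95% counting interval 85.8 to 2570; adjusted p = 0.000154). TWIST2 had 1, 1 and 0 counts and 5.29, 4.16 and 2.85 CPM (ratio 112, 95% counting interval 30.8 to 933; adjusted p = 0.000913). All clones of both genes were above all controls. Of 18 SOX factors, 14 were tested, 4 were higher (28.6%) and 2 lower (14.3%). Among the 11 SOX factors with a control mean of at least 1 CPM 1 was higher and 2 lower. SOX17, an endodermal and endothelial factor, had no control count and 1.25, 4.66 and 6.13 CPM in the clones (at least 71.4-fold higher, adjusted p = 0.0016). Of 9 nuclear receptors of the COUP-TF and retinoid families, 7 were tested and NR2F2 was the call, from 187, 177 and 193 to 96.9, 85.6 and 114 CPM (log2 fold change -0.91 ± 0.12 (SE), adjusted p = 0.000566). NR2F1, which the study discusses for PRC2 KO cells, was at 5.94, 6.46 and 1.05 CPM in the controls and 4.96, 1.97 and 3.6 in the clones (log2 fold change -0.35, adjusted p = 0.684), with the parental line below every clone.

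Potassium channels, which set the excitability of neurons and muscle, rose in number. Of 63 listed, 38 were tested, 24 were called higher and 0 lower by edgeR (2 lower at an unadjusted p under 0.05 and 1 by DESeq2). The share higher was 63.2%, against 14.7% of all genes tested, and of the 16 with a control mean of at least 1 CPM 6 were higher. Of 35 that were silent in the controls, 8 reached 1 CPM in every SUZ12 KO clone and 1 in every EZH2 KO clone. Against the same controls 21 potassium channels were called higher in the EZH2 KO clones. KCNA6 had no control count and 10.9, 8.95 and 7.85 CPM in the clones (at least 167-fold higher, adjusted p = 0.000524). KCNK5 had no control count and 4.57, 3.62 and 3.01 CPM (at least 67.9-fold higher, adjusted p = 0.00176). In EZH2 KO against control KCNA6 and KCNK5 were called higher as well (adjusted p = 0.0017 and 0.0074). Neither was called in the direct contrast of the KOs (adjusted p = 0.999). KCNE4, the highest of those not called, was at 144, 144 and 146 and 106, 87.5 and 122 CPM (log2 fold change -0.46, adjusted p = 0.111).

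Of 48 axon guidance genes, 45 were tested, 16 were called higher (9 to 25 across the settings tried) and 3 lower. These were 35.6% and 6.67%, against 14.7% and 5.87% of all genes tested. Of the 35 with a control mean of at least 1 CPM 9 were higher and 3 lower. EFNB2, the ligand ephrin-B2, went from 1.07, 1.69 and 0.949 to 87.5, 85.8 and 107 CPM (log2 fold change 6.24 ± 0.72 (SE), adjusted p = 0.000221). EPHB1, an ephrin receptor, went from 0.642, 0.604 and 0.264 to 60.1, 27.5 and 40.6 CPM (log2 fold change 6.40 ± 0.88 (SE), adjusted p = 0.000604). The netrin receptor UNC5C fell from 1.55, 1.69 and 0.527 to 0.241, 0.0895 and 0.215 CPM (log2 fold change -2.76 ± 0.60 (SE), adjusted p = 0.00712). All clones lay outside the range of the controls in these 3 genes.

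Targets of EWS::FLI1 were read as a list of activated and a list of repressed genes, and the difference between the lists was not tested. Of 30 activated targets, 28 were tested, 9 were called higher (32.1% against 14.7% of all genes tested) and 3 lower (10.7% against 5.87%), and their median log2 fold change was 0.32. The summed level of the list was 8690 to 9070 CPM in the controls and 8030 to 8120 in the clones. That sum depends on CAV1, whose mean alone went from 3286 to 1480 CPM, a larger fall than that of the sum. NKX2-2, a homeobox factor used as a marker of Ewing sarcoma, went from 31.5, 26.9 and 33.9 to 147, 124 and 105 CPM (log2 fold change 2.03 ± 0.31 (SE), adjusted p = 0.000986). PRKCB, protein kinase C beta, went from 259, 271 and 249 to 749.5, 718 and 701 CPM (log2 fold change 1.48 ± 0.21 (SE), adjusted p = 0.000664). Caveolin CAV1 fell from 2989, 3321 and 3549 to 1279, 1390 and 1772 CPM (log2 fold change -1.15 ± 0.16 (SE), adjusted p = 0.000567). CCND1 was at 1942, 1797 and 2111 CPM in the controls and 1701, 1441 and 1757 in the clones (log2 fold change -0.26, adjusted p = 0.204).

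Of 24 repressed targets, all tested, 11 were called lower (45.8% against 5.87% of all genes tested) and 1 higher (4.17% against 14.7%). Their median log2 fold change was -1.22, against 0.01 over all genes tested and -0.08 over those with a control mean of at least 1 CPM. The summed level of the list fell from 9730 to 10700 CPM in the controls to 3660 to 4040 in the clones. Between 5 and 14 members were lower across the settings tried. TNC, a matrix glycoprotein, fell from 712, 642 and 760.0 to 204, 188 and 278 CPM (log2 fold change -1.66 ± 0.26 (SE), adjusted p = 0.00113). CCN1, a matricellular protein, fell from 53.7, 49.4 and 117 to 10.9, 13.7 and 15.4 (log2 fold change -2.46 ± 0.41 (SE), adjusted p = 0.00169). COL6A3 rose from 5.56, 5.98 and 4.38 to 25.5, 38.4 and 19.6 CPM (log2 fold change 2.39 ± 0.36 (SE), adjusted p = 0.000992). COL1A1 was at 298, 232 and 136 and 301, 252 and 327 CPM (log2 fold change 0.40, adjusted p = 0.538). The list holds mesenchymal and matrix genes, and such genes appear in several lists below.

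Of 8 markers of Ewing sarcoma lines, 7 were tested, with a summed level of 794 to 919 CPM in the controls and 1440 to 1530 in the clones, and 3 were called higher (NKX2-2, PRKCB and PPP1R1A) and LIPI lower. The adjusted p of LIPI was 0.065 without clone 1, 0.0665 without clone 2 and 0.0642 without WT clone Rep2. CD99 had 0 counts in all 6 libraries. The counts do not say whether CD99 was absent from the cells or its reads were not assigned to it. PPP1R1A went from 97.2, 80.2 and 89.4 to 217, 183 and 138 CPM (log2 fold change 1.01 ± 0.16 (SE), adjusted p = 0.00107), and STEAP1 was at 139, 158 and 131 and 160.4, 164 and 221 CPM (log2 fold change 0.35, adjusted p = 0.279).

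Adhesion and matrix genes moved in both directions. Of 22 cadherins, 15 were tested, 4 were called higher (2 to 7 across the settings tried) and 3 lower. CDH2, which encodes N-cadherin, fell from 139, 145 and 123 to 13.9, 4.74 and 13.9 CPM (log2 fold change -3.65 ± 0.39 (SE), adjusted p = 0.000147). CDH6 fell from 13.6, 13.8 and 6.49 to 2.55, 1.75 and 2.85 CPM (log2 fold change -2.25 ± 0.39 (SE), adjusted p = 0.00216). CDH13 rose from 0.268, 0.543 and 0.264 to 4.86, 9.35 and 6.67 CPM (log2 fold change 4.27 ± 0.94 (SE), adjusted p = 0.00781). CDH11 was at 329, 340.5 and 284 and 259, 245 and 204 CPM (log2 fold change -0.43, adjusted p = 0.16). Of 53 clustered protocadherins, 43 were tested, 6 were called lower and 0 higher by edgeR (0 also at an unadjusted p under 0.05 and by DESeq2), with a median log2 fold change of -0.66, and between 0 and 15 were lower across the settings. Of 40 collagens, 31 were tested and 10 (32.3%) were called in each direction (8 to 12 higher and 3 to 12 lower across the settings tried), all 10 lower ones and 6 of the higher ones among the 26 with a control mean of at least 1 CPM. COL16A1 fell from 232, 201 and 121 to 38.5, 46.6 and 38.6 CPM (log2 fold change -2.16 ± 0.45 (SE), adjusted p = 0.00577), whereas the basement membrane collagen COL4A5, with no control count, was at 9.39, 12.6 and 4.3 CPM in the clones (at least 163-fold higher, adjusted p = 0.00462).

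Of 30 WNT ligands and antagonists, 15 were tested, 6 were called higher (40.0% against 14.7% of all genes tested) and 1 lower (6.67% against 5.87%). Among the 8 with a control mean of at least 1 CPM 2 were higher and 1 lower. Of 28 BMP and TGF-beta ligands and antagonists, 20 were tested, 8 were called higher (40.0%) and 2 lower (10.0%), with 2 higher and 2 lower among the 13 with a control mean of at least 1 CPM. GDF10, a BMP family ligand, went from 0.0535, 0.121 and 0.0527 to 14.6, 39.4 and 25.4 CPM (log2 fold change 8.36 ± 0.79 (SE), adjusted p = 0.000164). FSTL1, a secreted BMP antagonist, fell from 521, 571 and 470.5 to 87.1, 98.1 and 98.2 CPM (log2 fold change -2.46 ± 0.48 (SE), adjusted p = 0.00419), and GDF6 was at 421, 399 and 285 and 252, 232 and 244 CPM (log2 fold change -0.60, adjusted p = 0.0847).

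MHC class II genes, which present antigen to helper T cells, rose from low levels. Of 13 MHC class II genes, 8 were tested and 6 were called higher, none with a control mean of 1 CPM, and the summed level went from 1.07 to 2.53 CPM in the controls to 12.8 to 36.4 in the clones. HLA-DRB1 had no control count and 2.36, 6.54 and 2.9 CPM in the clones (at least 72.9-fold higher, adjusted p = 0.00199), and its reads may be shared with HLA-DRB5. CIITA, the master regulator of the class, had 0 counts in all 6 libraries. Of 17 class I genes, 15 were tested, 14 of them at a control mean of at least 1 CPM, 3 were called higher, a share near the 14.7% of all genes tested, and ERAP1 lower. The summed level of class I was 2520 to 3180 CPM in the controls and 2220 to 2510 in the clones. HLA-B went from 1.66, 1.99 and 2.27 to 35.8, 30.5 and 18.4 CPM (log2 fold change 3.84 ± 0.61 (SE), adjusted p = 0.00124) and HLA-E from 39.1, 39.8 and 49.98 to 106, 171 and 154 (log2 fold change 1.74 ± 0.24 (SE), adjusted p = 0.000609), while B2M was at 1529, 1740 and 1156 and 1051, 806 and 1080 CPM (log2 fold change -0.59, adjusted p = 0.0667). Of 44 interferon-stimulated genes, 37 were tested, 5 were called higher, a share near that of all genes tested (2 to 11 across the settings tried), and 0 lower by edgeR (2 at an unadjusted p under 0.05, 0 by DESeq2). IFIH1, an RNA sensor, went from 0.214, 0.181 and 0.527 to 4.38, 10.2 and 4.95 CPM (log2 fold change 4.36 ± 0.78 (SE), adjusted p = 0.00235).

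Imprinted genes were called in both directions. Of 34 listed, 23 were tested, 5 were called higher (21.7% against 14.7% of all genes tested) and 3 lower (13.0% against 5.87%). Of the 17 with a control mean of at least 1 CPM 1 was higher and 3 lower. PEG10, a retrotransposon-derived gene, fell from 564, 592 and 529 to 216, 166 and 139.7 CPM (log2 fold change -1.69 ± 0.16 (SE), adjusted p = 7.67e-05), and its neighbour SGCE from 44.7, 50.3 and 40.4 to 19.5, 22.5 and 20.1 (log2 fold change -1.12 ± 0.25 (SE), adjusted p = 0.0081). DLK1 rose from 0.107, 0.181 and 0.422 to 4.14, 29.1 and 11.1 CPM (log2 fold change 5.92 ± 1.11 (SE), adjusted p = 0.005), with clone 2 the highest. Of 34 cancer-testis and germline genes, 32 were silent in the controls, 5 were tested and 2 were called higher. PRAME, a tumour antigen, went from 1.07, 0.906 and 2.74 to 145, 174 and 64 CPM (log2 fold change 6.32 ± 0.93 (SE), adjusted p = 0.000829).

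Of 24 subunits of PRC1, the other Polycomb complex, all were tested, 3 were called higher (12.5%) and 2 lower (8.33%), shares near those of all genes tested. All 24 had a control mean of at least 1 CPM, a level at which 7.76% of tested genes were higher and 7.05% lower. PCGF5 rose from 17.2, 21.1 and 18.2 to 46.4, 54 and 52.2 CPM (log2 fold change 1.43 ± 0.19 (SE), adjusted p = 0.000443), PHC1 from 57.8, 56.9 and 53.6 to 93.1, 95.7 and 96 (log2 fold change 0.76 ± 0.13 (SE), adjusted p = 0.00164). PCGF2 fell from 33.1, 25.7 and 31.5 to 17, 16.4 and 19.5 (log2 fold change -0.77 ± 0.15 (SE), adjusted p = 0.00429). Of 17 enzymes of H3K27 and DNA methylation, 1 was higher and 1 lower. Of 8 cyclin-dependent kinase inhibitors, 6 were tested and 2 were called higher (33.3%). CDKN2A and CDKN2B, targets of PRC2 in other cells, had 0 counts in all 6 libraries. The counts do not say whether these 2 genes are intact in A673, so nothing about a response to the KO can be read from them. CDKN1A, which encodes p21, rose from 20.6, 16.8 and 11 to 57.5, 107 and 81 CPM (log2 fold change 2.35 ± 0.42 (SE), adjusted p = 0.00251). Of 40 genes of DNA replication and mitosis, 1 was lower and 0 were higher by edgeR (1 higher at an unadjusted p under 0.05 and 1 by DESeq2), with 0 to 16 lower across the settings tried, and the proliferation marker MKI67 was at 421, 406 and 550.1 and 619, 488 and 611 CPM (log2 fold change 0.32, adjusted p = 0.235).

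Metabolic lists were also examined. Of 28 glycolysis and hypoxia genes, 7 were called higher and 2 lower, such as NDRG1, from 2.14, 2.17 and 5.06 to 27.1, 19.3 and 21 CPM (log2 fold change 2.84 ± 0.43 (SE), adjusted p = 0.000959). P4HA1 went from 110.0, 122 and 68.1 to 42.5, 37 and 45.3 (log2 fold change -1.27 ± 0.24 (SE), adjusted p = 0.00366). Of 22 ATF4 targets, 2 were higher (9.09%) and 1 lower (4.55%), with 2 to 11 higher across the settings. At an unadjusted p under 0.05 by edgeR 9 were higher. Of the 21 with a control mean of at least 1 CPM 2 were higher and 1 lower. Over all tested genes at that control level 7.76% were higher and 7.05% lower. The median log2 fold change at that level was 0.69 for the list and -0.08 for all genes. STC2 went from 11.2, 11.2 and 11 to 43.8, 60.7 and 43.8 CPM (log2 fold change 2.15 ± 0.33 (SE), adjusted p = 0.000985), but was at 33.3 to 81.8 CPM in the control libraries of experiments 1 and 3. Of 23 cholesterol synthesis genes 0 were called by edgeR, also at an unadjusted p under 0.05, and 0 by DESeq2.

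**Figure D5:**
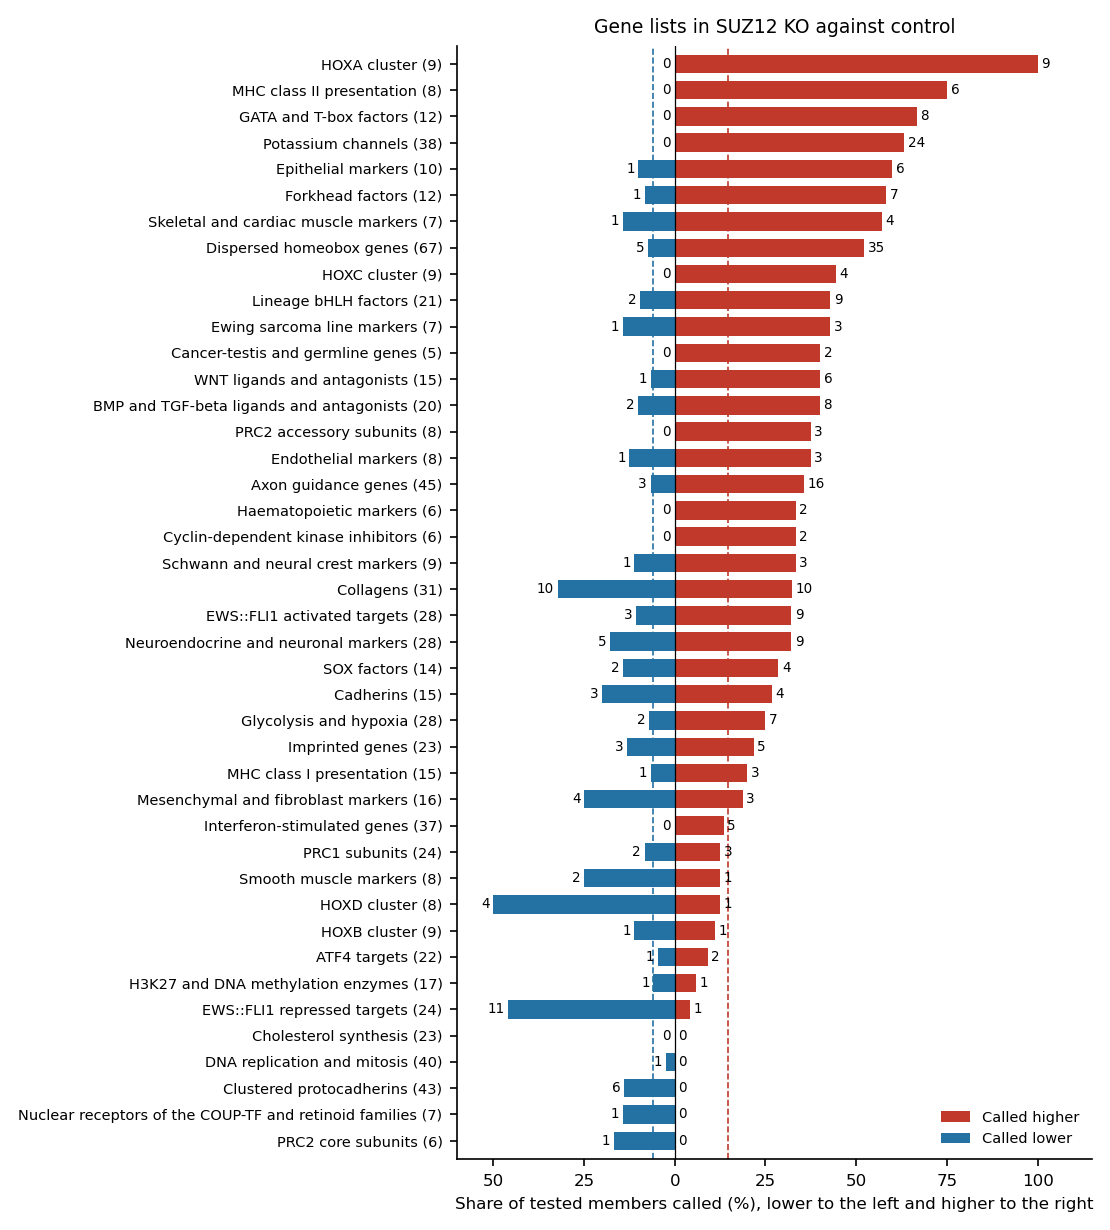
Share of the tested members of each list (number tested in parentheses) called higher (red, to the right) and lower (blue, to the left) in SUZ12 KO against control, with the number of genes at the end of each bar and dashed lines at the shares of all genes tested, 14.7% higher and 5.87% lower. The HOXA cluster, MHC class II, GATA and T-box, potassium channel, epithelial marker, forkhead and muscle marker lists lie far to the right, and the HOXD cluster and the EWS::FLI1 repressed targets have the longest bars to the left. Genes near 0 counts in the controls could pass the filter only through other libraries in which they were higher. At 1 CPM or more, HOXA and MHC class II had 0 members tested. There, 0 of 5 forkhead, 1 of 4 GATA and T-box, 2 of 5 epithelial, 2 of 5 muscle and 6 of 16 potassium channel members were higher.

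Markers of cell types other than Ewing sarcoma cells were read in the same libraries, and their part in the results was not tested. Of 32 neuroendocrine and neuronal markers, 28 were tested, 9 were called higher (32.1% against 14.7% of all genes tested) and 5 lower (17.9% against 5.87%). Of the 18 with a control mean of at least 1 CPM 2 were higher and 5 lower. The summed level of the list was 1600 to 1730 CPM in the controls and 1160 to 1400 in the clones. Silent members such as ELAVL4 and DCX were called higher at up to 1.69 and 1.40 CPM in a clone, whereas NEFL, a neurofilament, fell from 57.4, 55 and 35.2 to 14.3, 5.42 and 17.5 CPM (log2 fold change -1.99 ± 0.48 (SE), adjusted p = 0.0134). Of 12 Schwann and neural crest markers, 3 were higher and 1 lower, with SOX10 at 0 counts in all 6 libraries and NGFR, the low-affinity nerve growth factor receptor, going from 75.8, 57.5 and 71.1 to 245, 447 and 327 CPM (log2 fold change 2.32 ± 0.33 (SE), adjusted p = 0.000674). The summed level of that list was 113 to 135 CPM in the controls and 323 to 541 in the clones. Of its 9 tested members 33.3% were higher and 11.1% lower, against 14.7% and 5.87% of all genes tested. Of the 7 with a control mean of at least 1 CPM 2 were higher and 1 lower.

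Of 16 mesenchymal and fibroblast markers, all tested, 3 were higher and 4 lower. Their sum was 1410 to 2860 CPM in the controls and 978 to 1100 in the clones. Among the 12 with a control mean of at least 1 CPM 0 were higher and 4 lower. At that control level 7.76% of all tested genes were higher and 7.05% lower. The median log2 fold change there was -1.01 for the list and -0.08 for all genes. Endoglin, ENG, fell from 55.8, 46.2 and 59.3 to 23, 26.9 and 27.1 CPM (log2 fold change -1.07 ± 0.24 (SE), adjusted p = 0.00851). Of 10 smooth muscle markers, 8 were tested, 1 was higher (MYLK, from 3.8, 3.26 and 6.06 to 24.5, 46.7 and 38.6 CPM, log2 fold change 3.06 ± 0.42 (SE), adjusted p = 0.000604) and 2 lower, with a sum of 518 to 609 CPM and then 295 to 340. Of 26 skeletal and cardiac muscle markers, 7 were tested, 4 were higher (57.1%) and NEB lower, with a sum of 14.1 to 51.1 CPM and then 84.8 to 172. Among the 5 of these with a control mean of at least 1 CPM 2 were higher and 1 lower. TNNT1, a slow muscle troponin, rose from 5.03, 4.47 and 11.7 to 67.3, 116 and 64.3 CPM (log2 fold change 3.54 ± 0.45 (SE), adjusted p = 0.000356).

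Of 16 epithelial markers, 10 were tested, 6 were higher (2 to 7 across the settings tried) and 1 lower. These were 60.0% and 10.0%, against 14.7% and 5.87% of all genes tested. Among the 5 with a control mean of at least 1 CPM 2 were higher and 1 lower. The list had a sum of 655 to 763 CPM in the controls and 786 to 1640 in the clones. Most of that sum was keratin, with KRT8 going from 28.4, 24.9 and 36.6 to 170.5, 862 and 450.4 CPM (log2 fold change 4.04 ± 0.48 (SE), adjusted p = 0.000252) and KRT18 at 366, 317 and 316 and 249, 362 and 466 CPM (log2 fold change 0.11, adjusted p = 0.817). KRT5 was at 0 in all 6 libraries. CDH1, which encodes E-cadherin, had 10 counts in clone 2 and 0 in the other 5 libraries. Of 12 endothelial markers, 8 were tested, 3 were higher and EMCN lower, with sums of 92.0 to 137 and 73.3 to 150 CPM, and VWF had 0, 0 and 2 counts in the controls and 0, 21 and 6 in the clones. Of the endothelial markers tested 37.5% were higher and 12.5% lower. Among the 2 endothelial markers with a control mean of at least 1 CPM 0 were higher and 1 lower. Of 12 haematopoietic markers, 6 were tested and 2 were higher, with sums of 99.2 to 161 and 143 to 184 CPM, CD3E at 0 in all 6 libraries and PTPRC at 3 or 4 counts in each clone. Of the haematopoietic markers tested 33.3% were higher. Among the 4 haematopoietic markers with a control mean of at least 1 CPM 1 was higher.

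Beside the EZH2 KO clones, the SUZ12 KO clones gave more calls against the same controls, which both comparisons share. Against control, 2377 of 15130 genes (15.7%) were called in the EZH2 KO clones, 1819 higher and 558 lower. The direct contrast of SUZ12 KO and EZH2 KO called 1 of 15130 genes (0.00661%), by edgeR, with 629 genes at an unadjusted p under 0.05, and 22 genes by DESeq2. The gene was EZH2, the target of the other KO, at 45.6, 56.1 and 28.2 CPM in the EZH2 KO clones and 216, 203 and 229 in the SUZ12 KO clones (log2 fold change 2.32, adjusted p = 0.00186). For SUZ12 the contrast gave -1.73 (adjusted p = 0.0663). All 15 genes with the highest and 6 of the 10 with the lowest fold changes in SUZ12 KO were also called in EZH2 KO against the same controls, and 0 of the 25 were called in the direct contrast. GPR174 was the closest to a call, at 7.81, 11 and 5.82 CPM in the EZH2 KO and 0.481, 1.57 and 1.29 in the SUZ12 KO clones (log2 fold change -2.88, adjusted p = 0.103). A p that misses the threshold does not show that the KOs act alike. In the STAG2 KO clones of the same fit GPR174 was below every SUZ12 KO clone, at 0.0517, 0.158 and 0.108 CPM. Its log2 fold change against the same controls was -7.31 (adjusted p = 3.21e-05). TGFBI and SULT1E1 were also called lower there. FIGN, JPH4, RBFOX1 and CCND2 were called higher, at means of 0.545 to 1.92 CPM. The rest of the 25 were not called in STAG2 KO.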

How the data were processed

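Total RNA of A673 cells was converted to cDNA with oligo-dT priming and template switching, and non-directional libraries were sequenced as 86-nt single-end reads. Per the labels and the paper's methods, the authors checked reads with FastQC and aligned them to hg38. The tools named are TopHat2 2.0.0, SAMtools 0.1.16, Bowtie 0.12.7 and DESeq2. The deposited values are whole-number counts of reads per gene symbol, without normalization. The counting program and its annotation are not given in the sources used here. Because the libraries do not keep strand, reads from 2 overlapping genes on opposite strands may be counted on either. The tables of the other cell lines and of the knockdown were not used here, and 0 columns of the tables used were dropped.

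Groups were taken from the genotype in the labels. Counts of the 12 libraries of experiment 2 (control, STAG2 KO, EZH2 KO and SUZ12 KO, 3 each) were fitted together in edgeR 4.0.16 under R 4.3.3 (TMM, filterByExpr, quasi-likelihood fit and test). A gene was called when its adjusted p (Benjamini-Hochberg, over all genes tested) was under 0.05. Silent means at most 3 counts in each library. Ratios of summed counts, with exact 95% intervals, cover counting error only. Coordinates are those of GENCODE on GRCh38.

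The members and gene lists were chosen with earlier results of these data known. Genes were named when they encode PRC2 subunits, had the 15 highest or 10 lowest fold changes among called genes at a mean of 5 CPM whose groups do not overlap, had the 5 widest ranges among clones, or led a list. Of those leading a list, members called also without any 1 library were preferred, a choice made after the values were seen, as were SUZ12P1, CDKN2A, CDKN2B, CIITA, CD99 and the marker genes at or near 0. Alternatives were DESeq2 1.42.0, its size factors, library size, no filter, a fit of the 6 libraries alone, controls limited to the WT clone, a block for the replicate number, and fits with 1 library removed. The fit was tested on simulated data with the same spread for every gene. It called 110 of 114 genes changed by 2 log2 units, but only 17 of 86 changed by 1, and 8 of 14318 unchanged genes. Changes of about 2-fold were thus often missed at that spread. Genes in these data differ in spread, and how often such changes were missed here was not tested. Results for some genes are not reported here.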

Additional observations from a re-analysis of the deposited data

Results flagged for a closer look

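EZH2 was the gene that differed between the effects of the KOs in the direct test. Its log2 fold change in SUZ12 KO minus EZH2 KO was 2.32 (adjusted p = 0.00186, edgeR), with all 3 SUZ12 KO clones above all 3 EZH2 KO clones. It is the gene targeted in the EZH2 KO clones. Groups of 3 libraries are too small for the check for single outlying samples.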

How the results depend on the processing

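The 3112 calls of SUZ12 KO against control stayed within 1.5 times with DESeq2 (4188), its size factors (3112), library size (3049), no filter on low counts (3345), the 6 libraries alone (4378) and controls limited to the WT clone (2316, the same libraries as without the parental line). Without 1 library they ranged from 1874 to 3238. The direct contrast with EZH2 KO gave 1 call, 22 with DESeq2, 2 with library size, 5 with no filter, 0 by edgeR in the 6 libraries alone (790 at an unadjusted p under 0.05) and 1 to 2 without 1 library.

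SUZ12 was called lower under every setting tried. Of 128 called genes named in the report, 110 to 127 were still called in the same direction without 1 library, 122 with library size, 127 with no filter and 127 of the 127 with a value in DESeq2, and 0 changed sign in the settings of edgeR and DESeq2 run. The sign turned for 5 genes, none of them called. With library size the log2 fold change was 0.116 for MTF2, 0.0321 for PHF19, 0.109 for RBBP7 and 0.119 for SUZ12P1. Without 1 library it ranged from -0.14 to 0.31 for KRT18, from -0.202 to 0.00294 for MTF2 and from -0.173 to 0.0252 for RBBP7. The cause was not tested. Of 1176 counts of called list members over the settings, 912 were within 1.5 times the value in the report.

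With the replicate number as a block, over the 8 libraries with a number, 5159 genes were called against control (3664 in the same libraries with no block, a setting chosen after seeing the data) and 3 in the direct contrast, and KRT18 was at -0.10. Libraries with the same number shared only that number, and the correlations of their deviations from the group means were -0.14 to 0.379.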
